A study of Mus musculus with 22 samples.

Results

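Surfactant and alveolar type 2 (AT2) genes were read from whole-lung RNA as 10 named genes. They were Sftpa1, Sftpb, Sftpc, Sftpd, Abca3, Lamp3, Napsa, Slc34a2, Lpcat1 and Etv5. The 10, and the related lists below, were chosen by name with earlier results of these data known. All 10 were found among the 54532 genes of the table, and all 10 were among the 16638 that passed the filter on low counts. The RNA came from lungs of young male C57BL6/j mice at day 8 of hypoxia or normoxia, with daily ABT-263 at 50 mg/kg or its vehicle. ABT-263 (navitoclax) inhibits BCL-2 family survival proteins and is used as a senolytic. The groups were hypoxia with ABT-263 (5 libraries), hypoxia with vehicle (6), normoxia with ABT-263 (6) and normoxia with vehicle (5). The labels describe no transgene and no oxygen percentage.

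AT2 cells line the alveoli together with the flat alveolar type 1 cells. They make pulmonary surfactant, a film of phospholipid and surfactant proteins that lowers surface tension, and they store it in lamellar bodies before secretion. They also serve as progenitors of alveolar type 1 cells. The hydrophobic proteins SP-B (Sftpb) and SP-C (Sftpc) help to spread the lipid film, whereas the collectins SP-A (Sftpa1) and SP-D (Sftpd) bind microbes. Abca3 carries lipid into lamellar bodies, Lpcat1 makes surfactant phosphatidylcholine, Lamp3 is a lamellar body membrane protein, Napsa is a protease that helps to process SP-B, Slc34a2 takes up phosphate, and Etv5 is an ETS transcription factor that acts downstream of FGFR2-ERK signalling and maintains AT2 identity.

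The RefSeq table (GRCm38.p6) held the 250 bases before the transcription start for 7 of the 10 genes, in 8 windows, since Etv5 had 2. It held none for Sftpc, Sftpd or Napsa. Those of Sftpa1 and Sftpb, which were lower in hypoxia, and of Lamp3, for which no difference passed, are printed 5′ to 3′, with capitals at matches on either strand to CTCAAG and CAAGTG (cores bound by NKX2-1) and TGTTTNC (a forkhead core).
Sftpa1: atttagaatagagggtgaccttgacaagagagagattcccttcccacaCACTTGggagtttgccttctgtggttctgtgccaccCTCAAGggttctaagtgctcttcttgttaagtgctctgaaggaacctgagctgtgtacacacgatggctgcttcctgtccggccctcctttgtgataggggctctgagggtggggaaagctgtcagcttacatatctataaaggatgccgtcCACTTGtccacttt
Sftpb: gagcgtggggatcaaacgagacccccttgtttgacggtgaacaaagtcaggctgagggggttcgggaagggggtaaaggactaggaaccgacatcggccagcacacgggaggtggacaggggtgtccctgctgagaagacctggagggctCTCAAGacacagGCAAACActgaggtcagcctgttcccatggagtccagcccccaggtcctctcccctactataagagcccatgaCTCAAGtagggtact
Lamp3: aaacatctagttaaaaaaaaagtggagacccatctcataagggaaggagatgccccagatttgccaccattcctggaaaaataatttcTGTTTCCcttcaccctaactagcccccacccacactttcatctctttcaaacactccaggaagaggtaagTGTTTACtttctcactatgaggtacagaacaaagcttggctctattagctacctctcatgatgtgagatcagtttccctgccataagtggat
The Sftpa1 window lies at chr14:41131538-41131787 on the plus strand, that of Sftpb at chr6:72304360-72304609 on the plus strand and that of Lamp3 at chr16:19706366-19706615 on the minus strand. CTCAAG stood in 2 of the 8 windows, Sftpb at 100 and 15 bases and Sftpa1 at 166 bases before the start, and in 13.3% of 32851 promoters of the same length. CAAGTG stood in 1 of the 8, that of Sftpa1, against 11.6% of all promoters. Neither CTCAAG nor CAAGTG stood in the windows of Abca3 and Etv5, also lower in hypoxia, or in those of Lamp3, Lpcat1 and Slc34a2. Any relation of these matches to the hypoxia values was not tested. TGTTTNC stood in 3 of the 8, those of Sftpb and Lamp3 and 1 of the 2 of Etv5, against 17.8%. The hypoxia response core ACGTG, also searched on both strands, stood in 2 of the 8, that of Lpcat1 and 1 of the 2 of Etv5, and in 16.6% of all promoters. CTCAAG and CAAGTG can overlap through CAAG, but no matches overlapped in the windows printed, and a match describes the sequence and no binding.

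Library totals ran between 11509007 and 15744193 counts. Sftpc was the second most abundant gene in each of the 22 libraries, behind the club cell gene Scgb1a1, and took 2.26% to 3.14% of all counts. The 10 genes together took 3.03% to 3.98%. In 3 libraries, replicate 1 of hypoxia with ABT-263, of hypoxia with vehicle and of normoxia with ABT-263, the treatment tag went against the title, and groups follow the titles. Haemoglobin genes took 0.88% to 1.44% of counts in hypoxia with ABT-263 and 0.925% to 1.29% in hypoxia with vehicle, against 0.343% to 0.698% in normoxia with ABT-263 and 0.403% to 0.563% in normoxia with vehicle, and their part in the results was not tested. The labels do not say that each library is a separate mouse, so p-values measure the spread between these samples.

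Per kilobase of exon, the level of Sftpc averaged 25646 CPM (edgeR's counts scaled to a common library total), that of Sftpa1 1335.5, Sftpb 593, Sftpd 545.9, Slc34a2 273, Lamp3 172, Napsa 137, Lpcat1 105, Abca3 24.9 and Etv5 15.7. Each gene stood above the next in 22 of 22 libraries, except that Sftpb was above Sftpd in 12 of 22, so that pair was not separated. Sftpa1 (chromosome 14, 41131782 to 41136452) and Sftpd (chromosome 14, 41172214 to 41185149) are neighbours, 35.8 kb apart and on opposite strands. Sftpc also lies on chromosome 14, at 70520949 to 70524081. These positions are from GENCODE M21 on GRCm38.

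Hypoxia with vehicle lowered 4 of the 10 genes and raised none. Sftpa1 fell by 29.7%, Sftpb by 23.6%, Abca3 by 23.6% and Etv5 by 16.1% relative to normoxia with vehicle. The most abundant of them, Sftpc, did not pass, nor did Sftpd, Lamp3, Napsa, Slc34a2 or Lpcat1. Across all genes tested, 26.3% passed in this comparison, 13.5% as higher and 12.8% as lower, and the median log2 fold change was −0.02 over the 10 genes and −0.0038 over all genes. With ABT-263 in both oxygen conditions, the 4 genes that passed as lower in hypoxia were again Sftpa1, Sftpb, Abca3 and Etv5, where 39.2% of all genes passed, 17.9% as higher and 21.3% as lower. The median there was −0.14 over the 10 genes and −0.02 over all genes. In whole lung, fewer AT2 cells and less RNA per AT2 cell cannot be told apart.

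**Figure D1:**
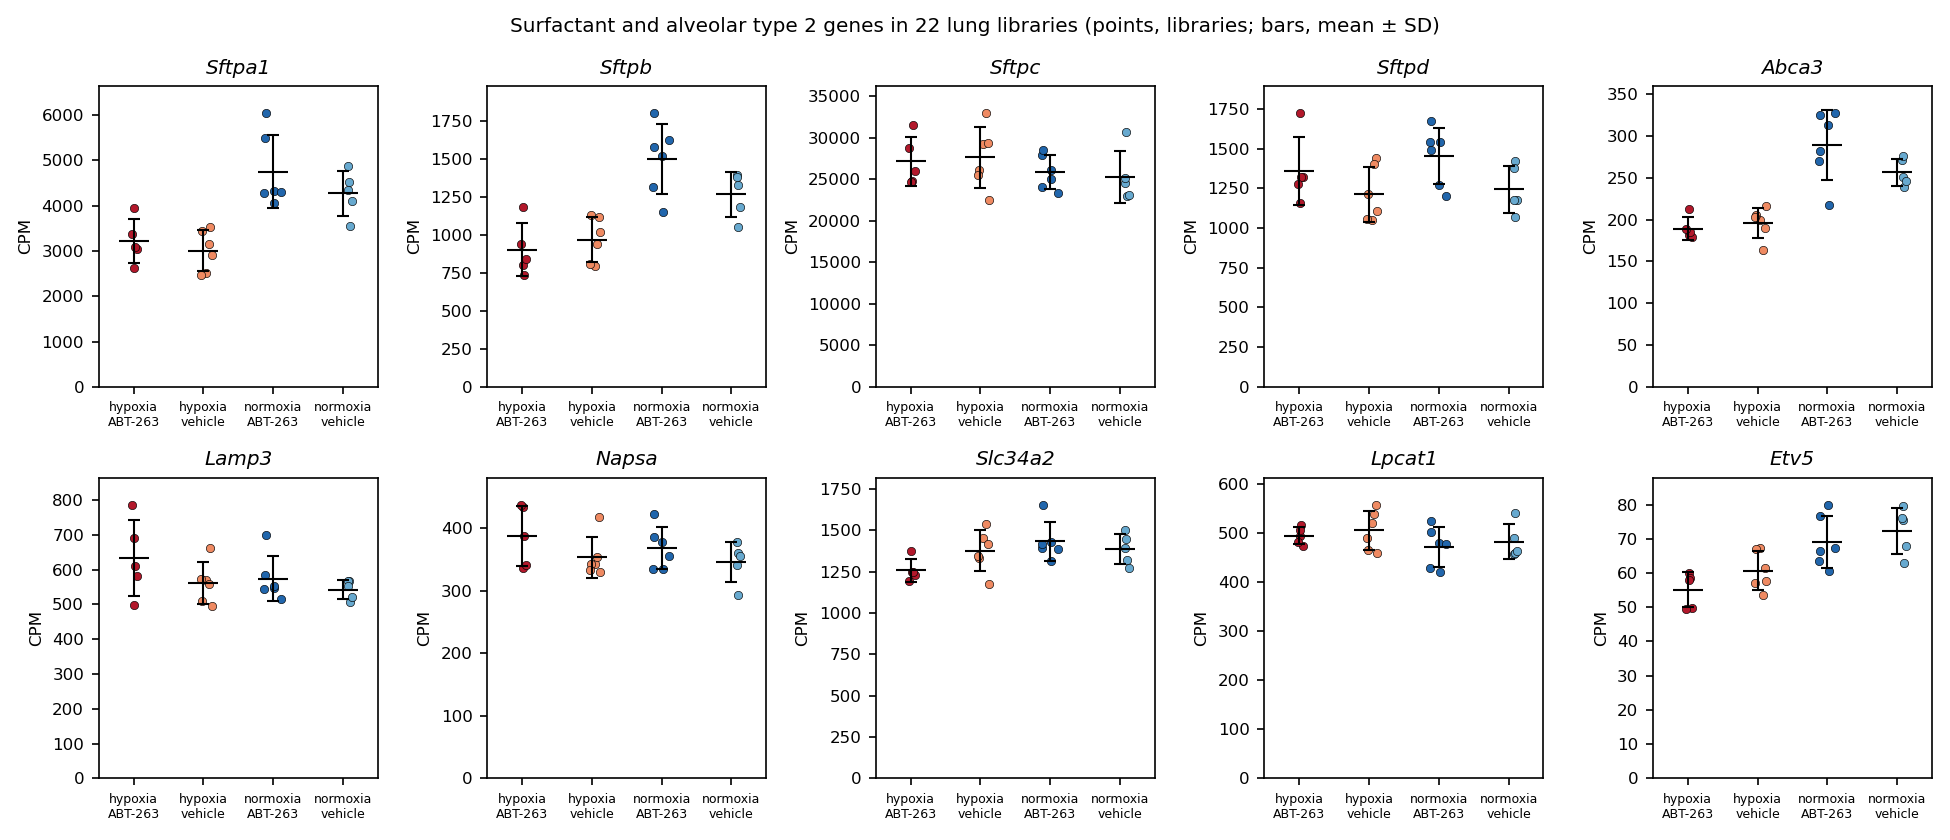
CPM of the 10 genes (vertical axis of each panel, starting at 0) in each of the 22 libraries by group; points are libraries and bars are mean ± SD. Sftpa1, Sftpb, Abca3 and Etv5 have lower means in both hypoxia groups than in both normoxia groups, whereas the Sftpc panel runs between 22554 and 32951 CPM with all 4 groups overlapping.

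Among the secreted proteins, Sftpa1 had 2628, 3047.5, 3084, 3946 and 3381 CPM in the hypoxia ABT-263 libraries. In hypoxia with vehicle it ran from 2471 to 3541 with a median of 3035 CPM. In normoxia with ABT-263 it ran from 4060 to 6040.3 CPM, with a median of 4311, and in normoxia with vehicle it had 4523, 4867, 3545, 4105 and 4349 CPM. The hypoxia and normoxia libraries of Sftpa1 did not overlap under either treatment, although with vehicle the highest hypoxia library and the lowest normoxia library were nearly equal. The log2 fold change was −0.51 ± 0.13 (SE) with vehicle, adjusted p = 0.0045 by edgeR's quasi-likelihood test, and −0.56 ± 0.13 with ABT-263, adjusted p = 0.0012.

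Sftpb had 804, 843, 739, 1185 and 942 CPM in hypoxia with ABT-263. In hypoxia with vehicle it ran from 796 to 1134 with a median of 978 CPM. In normoxia with ABT-263 it ran from 1152 to 1800.4 CPM, with a median of 1549.7, and in normoxia with vehicle it had 1326, 1397.5, 1051, 1183 and 1384 CPM. The groups overlapped under both treatments, with ABT-263 through hypoxia replicate 4, the highest of its group. The log2 fold change was −0.39 ± 0.13 with vehicle, adjusted p = 0.026, and −0.73 ± 0.13 with ABT-263, adjusted p = 9.96e-05, by edgeR's quasi-likelihood test. The vehicle call was lost without the 3 libraries of conflicting labels, where the log2 fold change was −0.33 and the adjusted p was 0.073, and without any 1 of hypoxia vehicle replicates 1 and 5 and normoxia vehicle replicates 2 and 5. Leaving out each of the 22 libraries in turn gave adjusted p between 0.014 and 0.069.

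The other secreted proteins did not pass. Sftpc averaged 27185 ± 2954 CPM in hypoxia with ABT-263 (SD, n = 5), 27636 ± 3653 in hypoxia with vehicle (n = 6), 25860.0 ± 2076 in normoxia with ABT-263 (n = 6) and 25299 ± 3139.8 in normoxia with vehicle (n = 5). Its 95% interval for the log2 fold change in hypoxia was −0.11 to 0.36 with vehicle and −0.16 to 0.31 with ABT-263. Sftpd, which neighbours Sftpa1, averaged 1361 ± 214 CPM in hypoxia with ABT-263, 1212.5 ± 173 in hypoxia with vehicle, 1454.5 ± 179 in normoxia with ABT-263 and 1245 ± 149 in normoxia with vehicle. Its intervals were −0.27 to 0.20 with vehicle and −0.33 to 0.14 with ABT-263. A direct test of Sftpa1 or Sftpb against Sftpc was not made.

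Abca3, the lipid transporter, had 181, 179, 186, 212 and 189 CPM in hypoxia with ABT-263. In hypoxia with vehicle it ran from 163.5 to 216.5 with a median of 201 CPM. In normoxia with ABT-263 it ran from 218 to 327 CPM, with a median of 297.5, and in normoxia with vehicle it had 251, 271, 239, 246 and 276 CPM. Every hypoxia library lay below every normoxia library of the same treatment. The log2 fold change was −0.39 ± 0.09 with vehicle, adjusted p = 0.0023, and −0.61 ± 0.09 with ABT-263, adjusted p = 1.22e-05, by edgeR's quasi-likelihood test. The antisense gene D330041H03Rik overlaps exons of Abca3 and had at most 1334 counts in a library, against 1823 to 5018 for Abca3. Its own log2 fold change in hypoxia was −0.29 ± 0.12 with vehicle (adjusted p = 0.083, edgeR). The kit was stranded, but the strand setting of the counting is not given in the sources used here, so reads of the pair may not be fully separated.

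Etv5 had 60.15, 49.72, 58.60, 57.85 and 49.47 CPM in hypoxia with ABT-263. In hypoxia with vehicle it ran from 53.5 to 67.5 with a median of 59.5 CPM. In normoxia with ABT-263 it ran from 60.6 to 79.9 CPM, with a median of 66.8, and in normoxia with vehicle it had 75.38, 76.04, 62.85, 67.92 and 79.53 CPM. The groups did not overlap with ABT-263 and overlapped with vehicle. The log2 fold change was −0.25 ± 0.08 with vehicle, adjusted p = 0.027, and −0.32 ± 0.08 with ABT-263, adjusted p = 0.0039, by edgeR's quasi-likelihood test. The vehicle call was lost without any 1 of hypoxia vehicle replicates 4, 5 and 6 and normoxia vehicle replicates 2 and 5, with adjusted p between 0.015 and 0.081 over the 22 omissions.

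Hypoxia libraries lay wholly below normoxia libraries for 2 of the 10 genes with vehicle, where 6.96% of all genes did so, and for 3 of the 10 with ABT-263, where 9.09% did. The 6 genes that did not pass with vehicle had log2 fold changes between −0.04 and 0.13, adjusted p between 0.44 and 0.95 (edgeR), and 95% intervals that together ran from −0.27 to 0.36. With ABT-263 their log2 fold changes lay between −0.19 and 0.14, with adjusted p of 0.066 or more and intervals from −0.35 to 0.35. The lowest of these was Slc34a2, the phosphate transporter, at 1259 ± 69.8 CPM in hypoxia with ABT-263 and 1433 ± 115.5 in normoxia with ABT-263, which DESeq2 called at an adjusted p of 0.034. Lamp3 averaged 633.5 ± 110.1 CPM in hypoxia with ABT-263, 561 ± 59.4 in hypoxia with vehicle, 574 ± 65.55 in normoxia with ABT-263 and 542.4 ± 27.4 in normoxia with vehicle. Napsa ran from 331 to 437.5 CPM over both hypoxia groups and from 294 to 423 over both normoxia groups. Lpcat1 ran from 459.5 to 557 CPM over both hypoxia groups and from 421 to 540.9 over both normoxia groups.

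**Figure D2:**
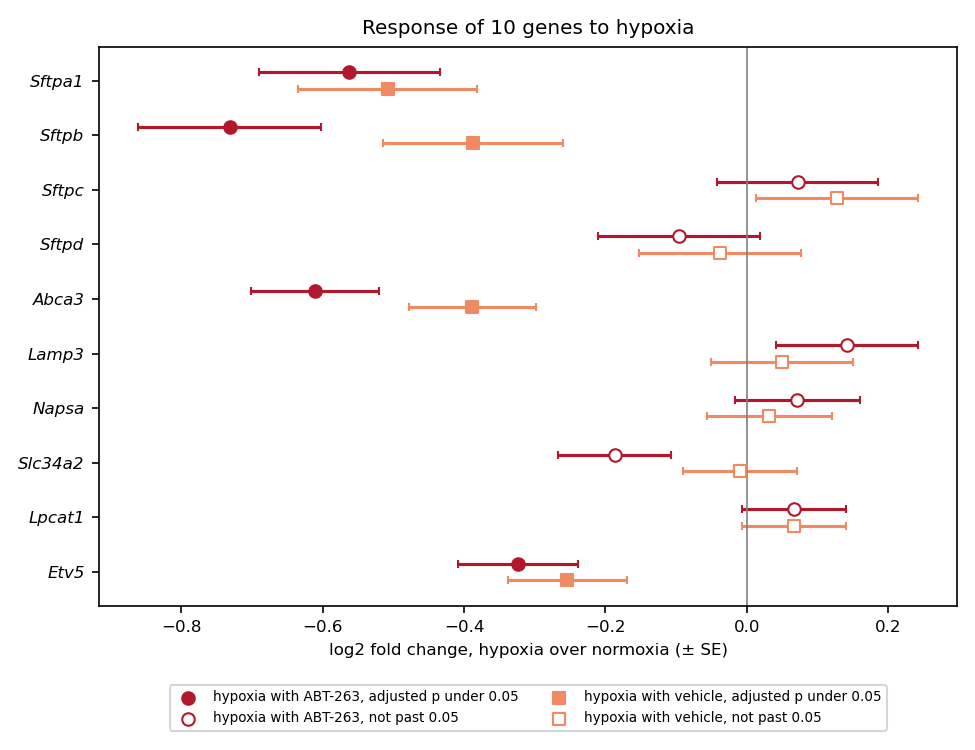
Log2 fold change of each gene in hypoxia over normoxia (horizontal axis) with ABT-263 and with vehicle; points are edgeR estimates, bars are ± SE, and filled points have an adjusted p under 0.05. Sftpa1, Sftpb, Abca3 and Etv5 are filled under both treatments and lie between −0.25 and −0.73.

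Set against Sftpc within each library, Sftpa1 stood at 9.77 to 15.99 counts per 100 Sftpc counts in hypoxia with ABT-263 and 8.61 to 13.2 in hypoxia with vehicle, against 15.5 to 21.1 in normoxia with ABT-263 and 14.7 to 19.8 in normoxia with vehicle. Sftpb stood at 2.34 to 4.80 in hypoxia with ABT-263 and 2.72 to 4.51 in hypoxia with vehicle, against 4.40 to 6.95 in normoxia with ABT-263 and 4.32 to 5.68 in normoxia with vehicle. Abca3 had medians of 0.687 in hypoxia with ABT-263 and 0.734 in hypoxia with vehicle, against 1.13 in normoxia with ABT-263 and 1.07 in normoxia with vehicle. Of 9 such ratios, 1 (Sftpa1) did not overlap between hypoxia and normoxia with vehicle and 0 did not overlap with ABT-263. Over the 16637 other genes tested, the ratio to Sftpc was lower in hypoxia without overlap for 2.86% with vehicle and 6.46% with ABT-263. The ratios are descriptions and were not tested.

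**Figure D3:**
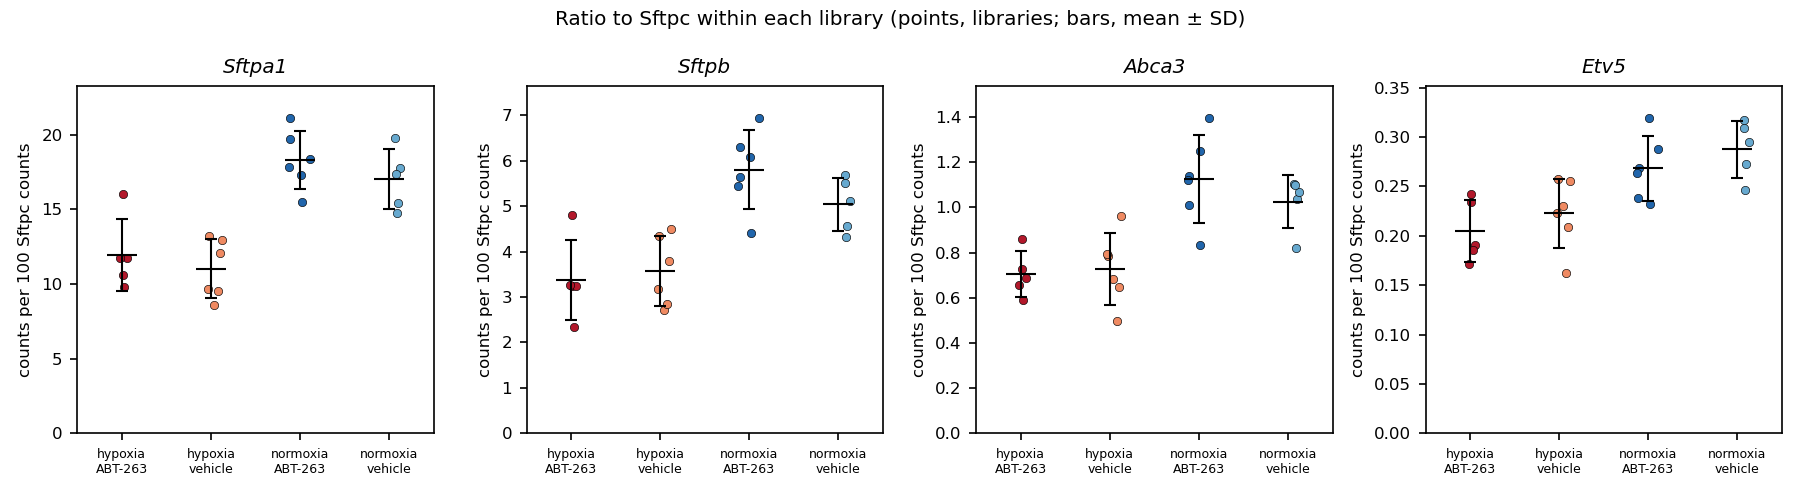
Counts of Sftpa1, Sftpb, Abca3 and Etv5 per 100 Sftpc counts in the same library (vertical axis, starting at 0) by group; points are libraries and bars are mean ± SD. Both hypoxia means lie below both normoxia means in each panel, and the hypoxia and normoxia vehicle libraries of Sftpa1 are separated at 13.2 against 14.7.

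None of the 10 genes passed for ABT-263 in normoxia, in hypoxia or averaged over both, which does not show that they were unchanged. Across all genes tested, 0.535% passed in normoxia, 0.301% in hypoxia and 2.54% averaged over both. DESeq2 called 0 of the 10 in each of them, and of the 10 only Sftpd, averaged over oxygen levels, had an unadjusted edgeR p under 0.05. Its log2 fold change was 0.20 with a 95% interval of 0.03 to 0.36 (edgeR adjusted p = 0.2). Averaged over oxygen levels the 10 log2 fold changes lay between −0.10 (Etv5) and 0.20 (Sftpd), with 7 of 10 positive and a median of 0.06. In normoxia Sftpb averaged 1499 ± 232 CPM with ABT-263 and 1268 ± 148 with vehicle, a log2 fold change of 0.24 with an interval of −0.02 to 0.50. In hypoxia it averaged 903 ± 174 CPM with ABT-263 and 969 ± 147 with vehicle, and the interval of the log2 fold change was −0.37 to 0.16. Abca3 had intervals of −0.01 to 0.36 in normoxia and −0.24 to 0.13 in hypoxia.

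Whether hypoxia acted differently with ABT-263 than with vehicle was tested as an interaction, and 0 of the 10 genes passed, as did 0 of all 16638 genes (0% by edgeR, with 1546 at an unadjusted p under 0.05, and 17 by DESeq2). The largest was Sftpb at −0.34 ± 0.18 (edgeR adjusted p = 0.58), with an interval of −0.72 to 0.03, followed by Abca3 at −0.22 ± 0.13 (edgeR adjusted p = 0.62), with an interval of −0.48 to 0.04. For Sftpa1 the interval was −0.42 to 0.32, and for Etv5 −0.31 to 0.17. The comparisons of hypoxia with each treatment share no library, while each ABT-263 comparison shares its libraries with both.

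Within groups the 10 genes varied together in part. Of 45 pairs, 42 had a positive Pearson correlation of deviations from group means over the 22 libraries, with a median of 0.44. The highest was 0.85 between Sftpa1 and Sftpb, both lower in hypoxia, and the lowest −0.31 between Sftpc and Abca3; points share library and scaling. The other genes most like the mean of the 10, over 22 libraries and 10781 genes of at least 10 CPM, were Mlc1 (Pearson r 0.91), Dram1 (0.87), Tspan11 (0.81), Rnf19b (0.80) and Pip5k1b (0.80). By deviations from group means they were Dram1 (0.92), Mlc1 (0.91), Sgpp2 (0.84), Tmem59 (0.82) and Pip5k1b (0.82).

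Of 10 listed transcription factors of AT2 cells 9 were tested, and whole-lung RNA does not show which cells expressed them. Hypoxia lowered 6 of the 9 with vehicle, where 12.8% of all genes passed as lower, and 7 with ABT-263, where 21.3% did. It raised 0 under either treatment. The other 3 with vehicle and the other 2 with ABT-263 did not pass, and 2 of the 9 had positive values under each treatment, Id2 (0.24 with vehicle and 0.12 with ABT-263) and Hopx (0.18 with vehicle and 0.16 with ABT-263). Hopx was also counted in the list of alveolar type 1 markers. The list medians were −0.22 with vehicle and −0.37 with ABT-263 (log2 fold change). Nkx2-1, the lung lineage factor that activates surfactant protein genes, averaged 104 ± 7.94 CPM in hypoxia with ABT-263 and 111 ± 10.8 in hypoxia with vehicle, against 135 ± 16.03 in normoxia with ABT-263 and 144 ± 7.55 in normoxia with vehicle. Its log2 fold change was −0.38 ± 0.08 with vehicle and −0.37 ± 0.08 with ABT-263. Cebpa, a factor of late AT2 maturation, had log2 fold changes of −0.47 ± 0.13 with vehicle and −0.71 ± 0.13 with ABT-263, and the forkhead factors Foxa1 had −0.32 with vehicle and −0.59 with ABT-263, and Foxa2 −0.30 with vehicle and −0.50 with ABT-263. In the FGFR2-ERK list, hypoxia with vehicle lowered 2 of 11, the receptor Fgfr2 (−0.42 ± 0.07) and the inhibitor Spry1 (−0.33 ± 0.12). It raised 2, the inhibitor Spred1 (0.24 ± 0.08) and Etv4 (1.36 ± 0.41), the close relative of Etv5. Etv4 was low, at 0.682 ± 0.216 CPM in hypoxia with vehicle and 0.259 ± 0.165 in normoxia with vehicle, with as few as 7 counts in a library in hypoxia and 1 in normoxia. With ABT-263, hypoxia lowered 3 of the 11 and raised 2. Over all genes, 13.5% passed as higher with vehicle and 17.9% with ABT-263.

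For the 3 lists that follow, the shares over all genes tested were 12.8% lower and 13.5% higher with vehicle. With ABT-263 they were 21.3% lower and 17.9% higher. Of 15 genes of lamellar body and surfactant handling, hypoxia lowered 5 and raised 1 with vehicle, and lowered 7 and raised 2 with ABT-263. In log2 fold change, Adgrf5, a receptor that restrains the surfactant pool, changed by −0.42 ± 0.11 with vehicle and Rab27a, a secretory vesicle GTPase, by −0.29 ± 0.08, whereas Ctsh, a protease that helps to process SP-B and SP-C, changed by 0.49 ± 0.10. Of 20 lipid synthesis genes, hypoxia lowered 4 and raised 1 with vehicle, and lowered 11 and raised 2 with ABT-263. Acaca, the enzyme that commits carbon to fatty acids, changed by −0.51 ± 0.11 with vehicle and −0.83 ± 0.11 with ABT-263, and the raised gene was Chpt1, a cholinephosphotransferase, at 0.69 ± 0.08 with vehicle and 0.64 ± 0.08 with ABT-263. The 16 other AT2 markers, all of them detected, divided: 5 rose and 4 fell with vehicle, and 6 rose and 6 fell with ABT-263. S100g (0.47 ± 0.13) and Ctsh, also counted in the lamellar body list, rose with vehicle, while Lgi3 (−0.42 ± 0.08) and Rasgrf1 (−0.61 ± 0.16) fell. The list median was 0.01 with vehicle and 0.05 with ABT-263.

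Club cells also make SP-A, SP-B and SP-D. Of 10 club cell markers hypoxia lowered 4 and raised 1 with vehicle, where 12.8% of all genes passed as lower and 13.5% as higher, and lowered 6 and raised 0 with ABT-263, where 21.3% passed as lower and 17.9% as higher. The other 5 with vehicle and the other 4 with ABT-263 did not pass. Their summed level was 44144 to 60535 CPM in hypoxia with ABT-263 and 52069 to 82614 in hypoxia with vehicle, against 58887 to 104387 in normoxia with ABT-263 and 76321 to 109234.5 in normoxia with vehicle, with no marker at 0 in any group. On the log2 scale Scgb1a1 changed by −0.48 ± 0.16 with vehicle and −0.77 ± 0.16 with ABT-263. Of 8 genes shared by lung epithelia, hypoxia lowered 3 and raised 1 with vehicle, with 4 that did not pass, and lowered 7 with ABT-263, among them Cdh1 at −0.32 ± 0.10 with vehicle and −0.66 ± 0.10 with ABT-263. The part of either list in the values of Sftpa1, Sftpb, Abca3 and Etv5, or in those of the listed AT2 transcription factors, was not tested.

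**Figure D4:**
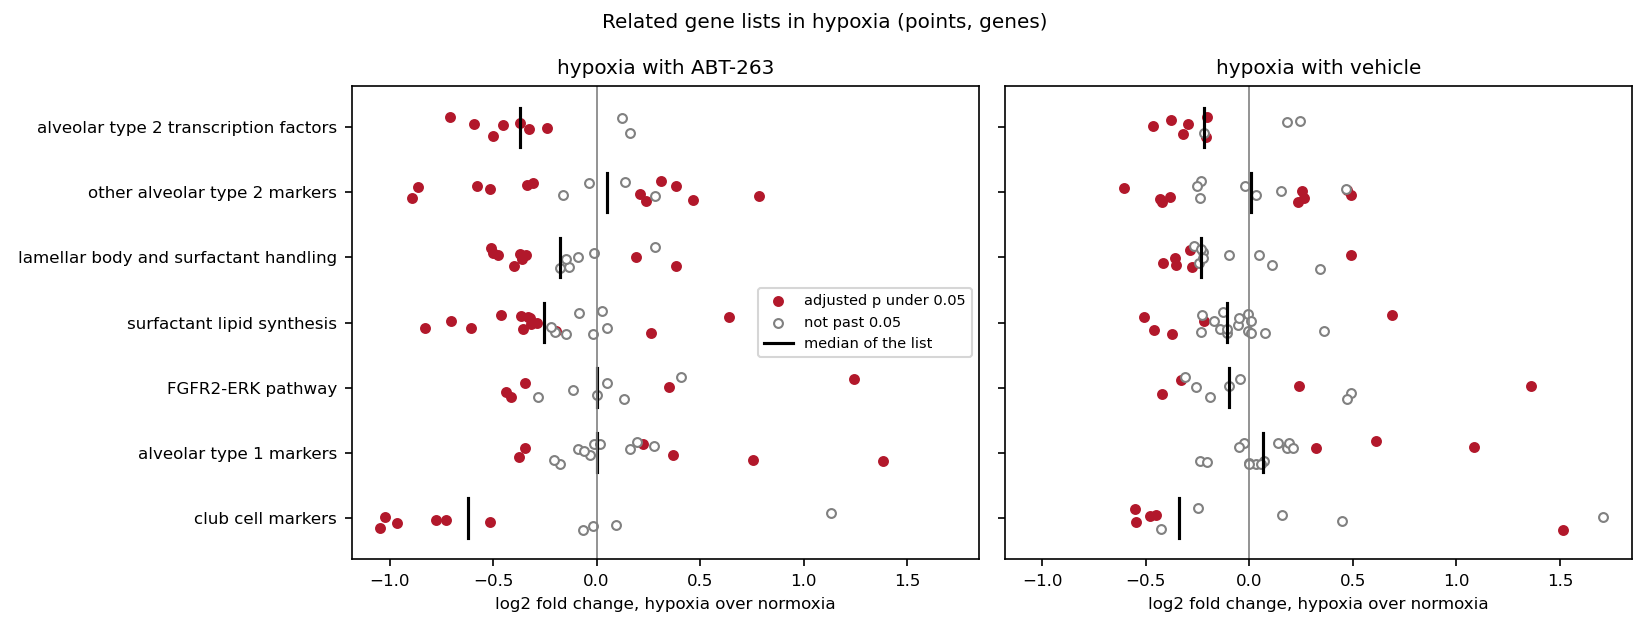
Log2 fold change in hypoxia over normoxia (horizontal axis) of each tested gene of 7 related lists, with ABT-263 on the left and with vehicle on the right; filled points have an adjusted p under 0.05 by edgeR and black bars are list medians. The listed AT2 transcription factors, read in whole lung, have medians of −0.37 with ABT-263 and −0.22 with vehicle. The other AT2 markers have 0.05 with ABT-263 and 0.01 with vehicle.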

How the data were processed

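Total lung RNA was made into stranded TruSeq mRNA libraries and sequenced on a NextSeq instrument, per the labels. The authors deposited expected counts per gene from RSEM; the submitters' processing notes also name Trimmomatic, STAR and GRCm38, without versions. Expected counts were rounded. Low counts were removed with filterByExpr (minimum count 10), leaving 16638 of 54532 genes. edgeR 4.0.16 (R 4.3.3, limma 3.58.1) fitted 4 groups from the titles with TMM factors and the robust quasi-likelihood test. P-values are two-sided, with Benjamini-Hochberg adjustment across the genes tested (threshold 0.05). CPM are counts scaled with TMM factors; exon length came from GENCODE M21. Replicates differed by more than sampling noise in every pair (chi-square for each gene between 5.35 and 40.9 on average). The fit was tested on simulated data.

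Members and lists were chosen with earlier results of these data known, and the motifs after the files were seen. Named genes were the 10, up to 4 of smallest p per list for hypoxia with vehicle and for ABT-263 averaged, and the 5 most alike; part is printed. Alternatives tried were RLE factors, plain library totals, factors without the 10 genes, DESeq2 1.42.0, limma-voom, 2 other filters, compared groups only, each library left out, label alternatives, and leaving out normoxia ABT-263 replicates 2 and 6. Figures used matplotlib 3.10.9.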

Additional observations from a re-analysis of the deposited data

Results flagged for a closer look

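In 4 of 40 combinations of gene and group 1 library stood apart from the others by Dixon's test at 95%, which chance alone flags in about 1 of 20. Sftpc was highest in normoxia vehicle replicate 1 at 30671.6 CPM, against 23042 to 25101.5 in the other libraries of that group. Lamp3 was highest in normoxia ABT-263 replicate 5 at 700.7 CPM, against 517 to 584 in the others, and Slc34a2 was highest in the same library at 1654.7 CPM, against 1318 to 1432. Napsa was highest in hypoxia vehicle replicate 3 at 417.6 CPM, against 331 to 354.5 in the others. None of these genes passed in any comparison by edgeR.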

How the results depend on the processing

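The 4 genes called in hypoxia kept their direction in all 264 values computed under the alternatives, and 10 of the 264 lost the call, all of them Sftpb or Etv5 with vehicle. The number of the 10 genes called with vehicle was 2 to 4 when each library was left out, with 2 without hypoxia vehicle replicate 5, normoxia vehicle replicate 2 or normoxia vehicle replicate 5, and 4 throughout with ABT-263. No setting called a gene of the 10 for ABT-263 or the interaction, where the counts over all genes moved with single libraries. For ABT-263 in normoxia 89 genes passed, against 59 with library totals, 327 by DESeq2, 17 with the compared groups only, 16 without the 3 libraries of conflicting labels, 0 with treatment read from the tag, 147 without normoxia ABT-263 replicates 2 and 6, and 1 to 183 with each library left out. In hypoxia 50 passed, against 247 by DESeq2, 9 by limma-voom, 152 with the compared groups only, 77 without the 3 libraries, 0 by the tag, 257 without replicates 2 and 6, and 3 to 228 with each library left out. Averaged, 423 passed, against 271 with library totals, 257 with no low-count filter, 773 by DESeq2, 253 by limma-voom, 0 by the tag, and 164 to 649 with each library left out. For the interaction 0 passed, against 17 by DESeq2, 1 without the 3 libraries, 8 without replicates 2 and 6, and 0 to 2 with each library left out. The cause of these differences was not tested.

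Among the values compared, log2 fold changes that changed sign were all small. All 10 genes were compared for both hypoxia comparisons and for ABT-263 averaged. For ABT-263 in normoxia, in hypoxia and the interaction, only Sftpa1, Sftpb, Abca3, Etv5 and Lamp3 were compared. In hypoxia with vehicle, Sftpd was 0.0030 without the 3 libraries and −0.094 to 0.013 with each library left out, Lamp3 −0.0036 to 0.083, Napsa −0.022 to 0.066 and Slc34a2 −0.040 to 0.032. For ABT-263 averaged, Sftpc was −0.0014 with no filter and −0.0026 with at least 1 CPM in 4 libraries, and −0.026 to 0.039 with each library left out, and Lpcat1 was 0.0022 without replicates 2 and 6. For the interaction, Etv5 was 0.069 by the tag and Sftpa1 −0.13 to 0.026 with each library left out. No paired analysis was possible because the labels number no replicates, and the numbers used here only name the libraries.

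Over all genes, the median standard error was 0.16 in the interaction and 0.11 in hypoxia with vehicle. Differences of the size of these errors were not detectable at this depth and number of libraries, and larger ones could also fail to pass. Sftpb in the interaction (−0.34 ± 0.18, edgeR adjusted p = 0.58) and Slc34a2 in hypoxia with ABT-263 (−0.19 ± 0.08, edgeR adjusted p = 0.066) did not pass.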

Other observations

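Of 16 alveolar type 1 markers, 3 rose and 0 fell with vehicle: Igfbp2 (log2 fold change 1.09 ± 0.16, SE), Pdpn (0.61 ± 0.13) and Clic5 (0.32 ± 0.10). The other 13 did not pass, and over all genes 13.5% passed as higher and 12.8% as lower. With ABT-263, 4 rose and 2 fell, where 17.9% of all genes passed as higher and 21.3% as lower. Of 14 genes of surfactant clearance and alveolar macrophages, which take up and degrade spent surfactant, 5 rose, 2 fell and 7 did not pass with vehicle. The mannose receptor Mrc1 (0.64 ± 0.07), the chitinase-like Chil3 (1.11 ± 0.17) and Siglecf (0.75 ± 0.13) rose, and the fatty acid transporter Cd36 fell by 0.39 on the log2 scale. Averaged over oxygen levels, ABT-263 raised 1 of these 14, the scavenger receptor Marco (0.61 by edgeR, adjusted p = 0.023). In that comparison 2.54% of all genes passed in either direction.

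For the lists that follow, the shares over all genes in hypoxia were 13.5% higher and 12.8% lower with vehicle. With ABT-263 they were 17.9% higher and 21.3% lower. Of 11 genes of the transitional state between AT2 and alveolar type 1 cells, hypoxia raised Ndrg1 (0.55 ± 0.09) and lowered Sfn (−0.40 ± 0.13) with vehicle. With ABT-263, 4 rose and 5 fell. Of 8 listed markers of mature dendritic cells, hypoxia lowered 2 and raised 0 with vehicle. The 2 were Ccr7 (−0.77 ± 0.12) and Relb (−0.23 ± 0.08). With ABT-263, 3 rose and 2 fell in hypoxia. Of 8 endothelial markers, 1 rose and 5 fell with vehicle, with Emcn at 1.06 ± 0.09, Plvap at −2.50 ± 0.17 and a list median of −0.36. With ABT-263, 1 of the endothelial markers rose and 3 fell in hypoxia. All 5 B cell markers fell in hypoxia under both treatments and with ABT-263 averaged over oxygen levels. For that average, 2.54% of all genes passed in either direction.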
